A study of Mus musculus with 136 samples.

Results

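The mouse Hox genes were taken as the genes whose symbol is Hoxa, Hoxb, Hoxc or Hoxd followed by a number, which gave 39 of the 47643 genes counted. They lie in 4 clusters on GRCm38 (mm10, GENCODE M21): 11 genes of cluster a within chr6:52155590-52260880, 10 of cluster b within chr11:96194316-96368256, 9 of cluster c within chr15:102921103-103036852 and 9 of cluster d within chr2:74668310-74765142. RNA was measured in 66 NOD mouse concepti collected on day 8.5 of gestation, and each conceptus gave 1 library from the embryo and 1 from its visceral yolk sac. NOD is an inbred strain whose females become diabetic spontaneously. The diabetic group came from 12 litters of females that were hyperglycemic in pregnancy, with blood glucose of 423 to 595 mg/dl at euthanasia and 1 litter recorded only as above a limit higher than that range, and the normal group came from 10 litters of females of the same strain at 105 to 164 mg/dl. No transgene or drug separated the groups. Embryos with 5 to 6 somite pairs are called early (17 diabetic and 17 normal) and embryos with 7 to 9 pairs late (16 and 16). A yolk sac was staged by its own embryo.

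Hox genes encode homeodomain transcription factors that give cells along the head-to-tail axis their position. Within a cluster, genes with low paralog numbers are switched on first and reach furthest towards the head, and genes with high numbers follow later and are kept towards the tail, an order known as collinearity. At this stage the embryo is still being extended from its tail end, where CDX, WNT, FGF and retinoic acid signals act on the clusters, while the yolk sac is a layer of visceral endoderm lined by extraembryonic mesoderm. PBX and MEIS proteins bind DNA together with HOX proteins.

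Libraries were made with a kit that primes at the poly(A) tail and reads 1 tag per transcript with a molecular identifier, so levels between genes were compared without dividing by transcript length. Total counts ran from 1017901 to 5658850 per library, with a median of 2302819. A level below is a normalised count, meaning counts divided by the library's DESeq2 size factor. The labelled tissues matched their markers, since the summed level of 10 visceral endoderm genes was 10372 to 53508 in the yolk sacs and 96.3 to 3362 in the embryos. Litter D24M15 supplied 9 concepti, 7 of them among the 16 late diabetic ones, and 1 of its embryos (D24M15J) stood apart from all others for most Hox genes, so late results are also given without it. The sex labels of embryo and yolk sac disagreed in 2 concepti. Littermates share a dam, and the tests treat concepti as separate samples.

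The summed level of the 39 genes was 478.6 in the lowest embryo, 2562 in the median and 4414 in the highest, against 247.5, 375 and 688 in the yolk sacs. Hox tags made up 0.116% of all counts in the median embryo and 0.0162% in the median yolk sac. The yolk sac with the highest sum, D28M36C, was the library with the fewest counts (1017901, of which 208 were Hox tags). Its share of 0.0204% was below the highest yolk sac share of 0.0264%, in D23M26A. In these bulk samples, fewer cells that express a gene and less RNA per cell cannot be told apart. Cluster b gave 40.1% of the embryos' summed mean level, cluster a 28.9%, cluster c 21.6% and cluster d 9.38%. In yolk sacs cluster b gave 50.8% and cluster c 38.7%, so that clusters a and d together were a small remainder at 8.51% and 1.96%.

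**Figure D1:**
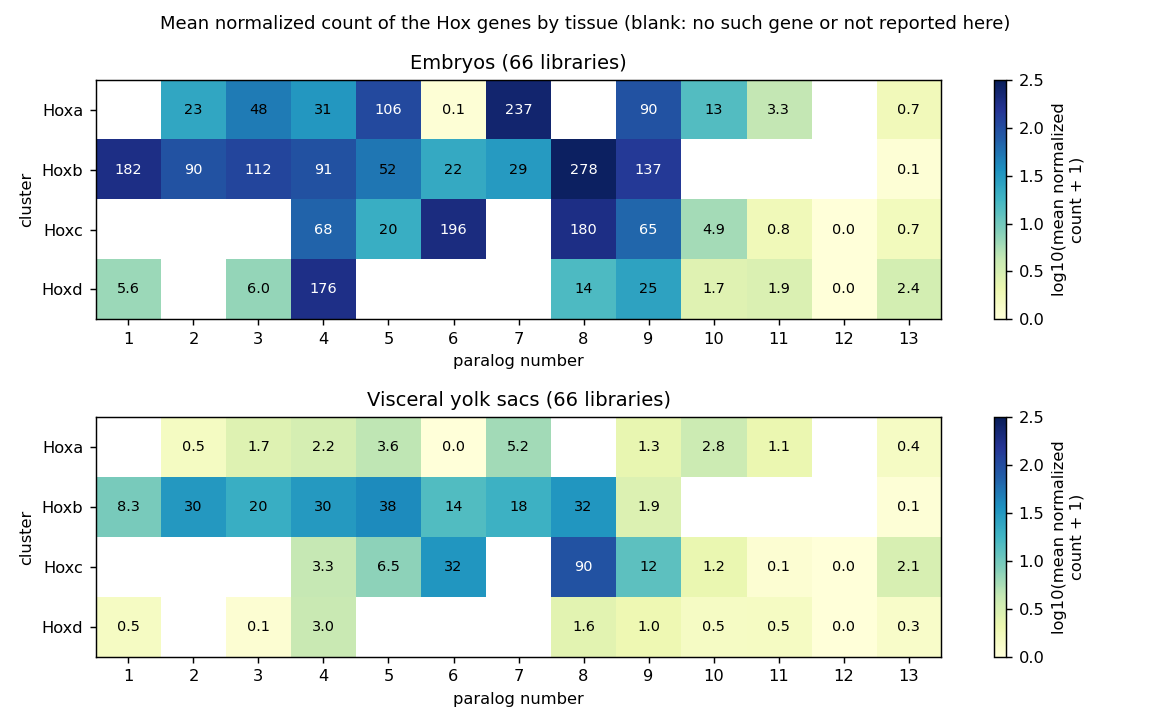
Mean normalised count of the Hox genes in the 66 embryos and the 66 yolk sacs, arranged by cluster (rows) and paralog number (columns), with colour giving log10 of the mean plus 1. Embryo signal reaches paralog 9 in every cluster and falls off at 10 and above, and in yolk sacs it is concentrated in clusters b and c.

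By paralog number, the median embryo had a summed level of 357 for paralog 1, 116 for paralog 2, 157 for 3, 362 for 4, 180 for 5, 211 for 6, 272 for 7, 485 for 8 and 319 for 9. Paralogs 10 and above were lower, with medians of 17.7 for 10, 4.67 for 11, 0 for 12 and 3.59 for 13. Expression of the embryos thus reached paralog 9 and dropped beyond it, where Hoxa10 was the highest gene at a median of 10.5. In the median yolk sac, paralog 8 led with 122, followed by paralog 5 with 46.3 and paralog 6 with 44.6, while paralog 1 reached 19.5 and paralog 9 reached 14.7.

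The 5 highest medians in embryos came from all 4 clusters. Hoxb8 was 6.38 in the lowest of 66 embryos, 295 in the median and 451 in the highest. Hoxa7, its trunk-level neighbour by paralog number in cluster a, was 2.13, 238 and 407. Hoxc6 was 3.55, 197 and 377. All 3 are genes of the middle of their clusters, and their lowest values came from the same embryo, D24M15J. Hoxc8 was 0.709, 180.5 and 620, and Hoxd4, the leading member of cluster d, was 46.7, 178 and 326. Neighbours in this order overlapped almost wholly across embryos. Hoxb1, a gene of the early hindbrain programme, came next at 75.3, 178 and 351 and varied less, with no embryo near 0.

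A second tier held Hoxb9 at a median of 136, Hoxb3 at 109, Hoxa5 at 104, Hoxb4 at 93.2, Hoxb2 at 92.6, Hoxa9 at 87.2, Hoxc4 at 69.0, Hoxc9 at 61.2, Hoxb5 at 52.3 and Hoxa3 at 47.7. The remaining genes measured in most embryos ran from Hoxa4 at 31.3 down to Hoxa10 at 10.5. Hoxa11, Hoxc10, Hoxd1, Hoxd3, Hoxd10, Hoxd11, Hoxd13 and Hoxa13 had medians between 0.326 and 5.52. The median was 0 for 6 genes, of which Hoxc11 had 61 counts over all embryos, Hoxc13 had 49, Hoxb13 had 6, Hoxa6 had 5, Hoxd12 had 2 and Hoxc12 had 0. Levels did not follow gene order within a cluster, since Hoxa6 was almost unseen between Hoxa5 and Hoxa7. The low-count filter kept 25 of the 39 genes in each comparison over embryos and 11 or 12 in each comparison within yolk sacs, so the other members carry no test there.

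Among the 5 leading genes, promoter sequence was available for Hoxb8, Hoxa7 and Hoxd4, and Hoxc6 and Hoxc8 could not be searched. All 3 searched hold the letters TTTATG, a form bound by CDX proteins, in the 250 bases before their RefSeq start (GRCm38.p6). These promoters are printed because the 3 genes are also described below in single embryos and across somite stages, and Hoxa9 is printed as a gene that rose with stage and has no such match. Capitals mark TTTATG on the printed strand or its reverse complement CATAAA. Hoxa7 lies at chr6:52218574-52218823 on the minus strand, Hoxa9 at chr6:52227371-52227620 on the minus strand, Hoxd4 at chr2:74721728-74721977 on the plus strand and Hoxb8 at chr11:96281655-96281904 on the plus strand.
Hoxa7: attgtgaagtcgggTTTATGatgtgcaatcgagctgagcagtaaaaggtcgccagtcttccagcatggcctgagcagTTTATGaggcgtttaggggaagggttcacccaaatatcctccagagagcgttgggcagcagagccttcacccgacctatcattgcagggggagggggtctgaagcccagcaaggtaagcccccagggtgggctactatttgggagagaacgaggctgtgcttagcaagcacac
Hoxa9: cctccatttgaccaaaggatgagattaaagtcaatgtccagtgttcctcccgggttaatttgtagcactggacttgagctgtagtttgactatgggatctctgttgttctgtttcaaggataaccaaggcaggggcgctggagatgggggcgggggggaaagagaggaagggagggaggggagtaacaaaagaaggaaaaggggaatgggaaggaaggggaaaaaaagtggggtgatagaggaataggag
Hoxd4: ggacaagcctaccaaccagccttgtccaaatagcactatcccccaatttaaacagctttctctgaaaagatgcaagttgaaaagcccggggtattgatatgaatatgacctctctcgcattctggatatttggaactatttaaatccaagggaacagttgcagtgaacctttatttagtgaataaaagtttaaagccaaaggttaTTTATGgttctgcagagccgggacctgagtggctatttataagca
Hoxb8: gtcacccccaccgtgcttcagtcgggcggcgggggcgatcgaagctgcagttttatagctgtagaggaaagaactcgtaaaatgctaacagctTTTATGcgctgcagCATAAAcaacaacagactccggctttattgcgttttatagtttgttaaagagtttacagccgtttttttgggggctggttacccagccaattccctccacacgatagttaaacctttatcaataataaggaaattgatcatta
Hoxb8 carried the letters on both strands, 157 and 143 bases before the start, Hoxa7 carried them at 236 and 173 bases, and Hoxd4 at 45 bases. A promoter was found for 22 of the 39 genes, and 5 of the 22 held TTTATG, with Hoxd3 and Hoxd11 beside the 3 above. Among all 32851 promoters, 10.8% held it. TGATNNAT, a HOX and PBX form, was in 4 of the 24 Hox promoters and 7.68% of all promoters. CCAAT was in 14 and 33.8%, TATAAA in 4 and 12.4%, and the DR5 retinoic acid response element in 0 and 0.00913%. All motifs were searched on both strands, and a match is a description of letters only.

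The first comparison asked how Hox expression differed between the yolk sac and the embryo of the same stage. All 25 members tested at the early stage were lower in yolk sacs, beside 39.7% of all genes tested. They had passed the low-count filter through the embryos, so that count is not read as support for a direction. The size of the difference varied widely between genes. Hoxb5, Hoxb6, Hoxb7 and Hoxc8 were the best retained. Hoxa2, Hoxa7, Hoxa9, Hoxb9 and Hoxd4 were the least.

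Hoxc8, the leading Hox gene of the yolk sac, was 23.3 in the lowest yolk sac, 83.5 in the median and 311 in the highest. Hoxb5 was 7.36, 37.1 and 76.6. Hoxb8 was 0, 32.4 and 85.4. The first 2 therefore had counts in every yolk sac, and their yolk sac and embryo ranges overlapped. Hoxc6 (8.37, 31.2 and 86.1), Hoxb4 (12.3, 29.04 and 55.0), Hoxb2 (12.6, 28.7 and 79.8), Hoxb3 (4.32, 18.7 and 49.3), Hoxb7 (8.50, 17.7 and 31.9) and Hoxb6 (2.39, 13.2 and 47.4) followed. Nearly the whole of cluster b from Hoxb2 to Hoxb8 was thus present in yolk sacs, with Hoxb1 at a median of 7.52 on one side and Hoxb9 below 4 on the other. In cluster a, Hoxa7 was 0.735, 4.80 and 13.7. Hoxa6 and Hoxd12 had no count in any yolk sac, Hoxc12 had 1 and Hoxd3 had 8 in all.

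The mean level of Hoxb5 in early yolk sacs was 74.0% of that in early embryos, and in late ones 72.6%. Hoxb7 stood at 60.9% and 64.2%, Hoxb6 at 51.7% and 77.3%, and Hoxc8 at 44.4% and 55.2%. These 4 genes overlap in number from 5 to 8, in clusters b and c only. The other cluster b genes were lower and did not follow gene order, with 36.1% and 31.3% for Hoxb2, 21.2% and 13.4% for Hoxb3, 36.5% and 30.1% for Hoxb4, 13.2% and 9.61% for Hoxb8, and 1.44% and 1.28% for Hoxb9. In clusters a and d, Hoxa7 stood at 2.54% and 1.90%, Hoxa9 at 1.89% and 1.07% and Hoxd4 at 2.05% and 1.49%, while Hoxa10 stood at 20.5% and 22.6% and Hoxd8 at 9.81% and 11.8%. Paralogs of the same number differed widely, since Hoxb7 and Hoxa7, or Hoxc9 (23.5% and 15.3%) and Hoxb9, sat far apart.

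**Figure D2:**
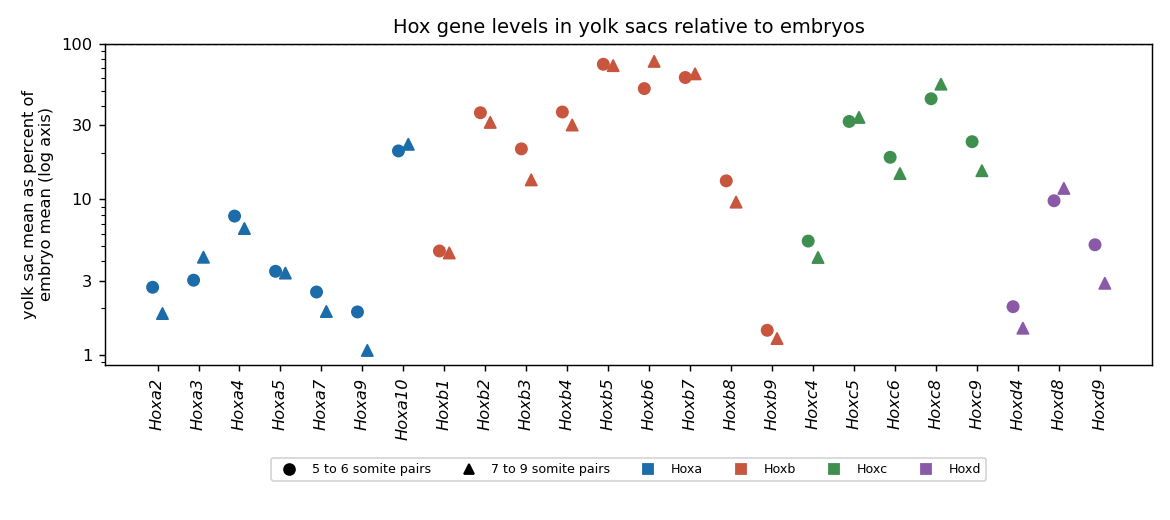
Mean level in yolk sacs as a percent of the mean level in embryos of the same stage, for Hox genes that passed the low-count filter, on a log axis, with circles for early and triangles for late concepti and colour for the cluster. Hoxb5, Hoxb6, Hoxb7 and Hoxc8 lie between 44.4% and 77.3%, and Hoxa2, Hoxa7, Hoxa9, Hoxb9 and Hoxd4 lie under 3% at both stages.

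In the edgeR quasi-likelihood test with Benjamini-Hochberg adjustment, 79.1% of all genes tested were called different between early yolk sacs and early embryos and 39.7% lower in yolk sacs, and 25 of the 25 tested Hox genes were. At the late stage 81.2% of all genes were called different, and 42.6% of all genes and 24 of 25 Hox genes were called lower. The tested members had passed the low-count filter through the embryo libraries, so these counts are not read as support for a direction. The log2 difference at the early stage was −0.37 (SE 0.12, adjusted p = 0.00341) for Hoxb5, −0.66 (SE 0.10, adjusted p = 1.03e-08) for Hoxb7 and −1.09 (SE 0.16, adjusted p = 2.82e-09) for Hoxc8. It was −5.15 for Hoxa7 (SE 0.15), −5.48 for Hoxd4 (SE 0.19), −5.54 for Hoxa9 (SE 0.27) and −5.93 for Hoxb9 (SE 0.23). Hoxb6 was the exception at the late stage, with a log2 difference of −0.31 (95% interval −0.74 to 0.11, adjusted p = 0.166).

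Within concepti, the yolk sac was lower than its own embryo in 66 of 66 pairs for Hoxa2, Hoxa3, Hoxa4, Hoxa9, Hoxb1, Hoxb2, Hoxb3, Hoxc4 and Hoxd4. Hoxb5 was higher in the yolk sac in 16 pairs and Hoxb6 in 20. Hoxc13 ran the other way, with a mean yolk sac level of 305% of the embryos' early and 340% late, from 49 counts over all embryos, and a higher level in the yolk sac in 41 pairs. Without the low-count filter it was the 1 member called higher in yolk sacs, at both stages. Neural plate markers summed to 0 to 62.7 in yolk sacs and 529 to 1405 in embryos, and paraxial mesoderm markers to 0 to 15.9 and 21.8 to 362. Their part in the yolk sac Hox levels was not tested.

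Partners and upstream regulators were counted in the same way, beside 39.7% of all genes lower and 39.3% higher in early yolk sacs. Many of them passed the filter through the embryos, as 16 upstream genes were tested here and 6 within yolk sacs, so these counts too are not read as support for a direction. Of 8 tested PBX, MEIS and PKNOX genes at the early stage, 7 were lower, with Meis2 at a log2 difference of −2.62, Meis1 at −1.96 and Pbx3 at −1.77, and Pknox1 was higher at 0.31. Of 16 upstream genes, 13 were lower, led by the tail bud genes Cdx1 (−7.54), Fgf8 (−6.93), Wnt3a (−6.78) and T (−6.66), and 2 were higher, among them the retinoic acid degrading enzyme Cyp26a1 (1.17). Cdx2, a regulator of Hox genes that also acts in extraembryonic tissue, kept a median level of 24.5 in yolk sacs against 88.4 in embryos, whereas Cdx1 had a median of 0 in yolk sacs. Of 12 Polycomb and trithorax genes, 7 were lower, such as Cbx2 (−2.33) and Phc1 (−1.68), and 2 were higher. All 6 tested noncoding genes within the clusters were lower, with Hoxaas3 at −6.81 and Hotairm1 at −4.22. Genes flanking the clusters were mixed, with 4 of 9 lower and 3 higher.

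The second comparison asked how Hox levels moved as somites were added. In embryos the genes that rose were Hoxa2, Hoxa7, Hoxa9, Hoxb1, Hoxc5, Hoxc6, Hoxc9, Hoxd4 and Hoxd8. Hoxc9 rose most, from 12.0, 44.1 and 86.3 (lowest, median and highest of 34 early embryos) to 1.42, 83.3 and 169 in 32 late ones, a log2 difference of 0.91 (SE 0.17, adjusted p = 3.54e-05). The groups overlapped, and the lowest late value was that of D24M15J. Hoxa9 went from 12.7, 70.4 and 147 to 2.13, 110 and 187, a log2 difference of 0.69 (SE 0.17, adjusted p = 0.00132). Hoxc6 went from 45.6, 144 and 345 to 3.55, 248 and 377, a difference of 0.62 (SE 0.15, adjusted p = 0.00115). Hoxd4, a gene with a more anterior limit, rose as well, from 46.7, 145 and 326 to 63.8, 203 and 311, by 0.48 (SE 0.13, adjusted p = 0.00244).

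The other genes called higher in late embryos were Hoxa7 (log2 difference 0.46, adjusted p = 0.0097), Hoxd8 (0.47, adjusted p = 0.0199), Hoxc5 (0.40, adjusted p = 0.00557), Hoxb1 (0.32, adjusted p = 0.00917) and Hoxa2 (0.27, adjusted p = 0.027). In all, 9 Hox genes were higher and 1 lower of 25 tested, against 14.6% higher and 15.2% lower over all genes tested (29.8% in either direction). The median log2 difference was 0.20 over the 25 Hox genes and −0.01 over all genes. Without D24M15J, 12 were higher and 0 lower, and Hoxc4, Hoxc8 and Hoxd9 passed the test. With litter as a fixed block 5 were higher (Hoxa9, Hoxc5, Hoxc6, Hoxc9 and Hoxd4) and 0 were lower. With litter as a random block the calls of Hoxa7, Hoxc6 and Hoxd8 were lost.

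With the somite number itself as the scale, 10 genes were called, and all 10 were those called between the stages. The level of Hoxc9 increased by 0.37 log2 units per somite pair (SE 0.05, adjusted p = 9.06e-07), that of Hoxa9 by 0.27 (SE 0.06, adjusted p = 0.000239) and that of Hoxc6 by 0.24 (SE 0.05, adjusted p = 0.000279). Hoxc9 medians were 39.8 at 5 pairs, 62.3 at 6, 63.2 at 7, 84.2 at 8 and 102 at 9, over 24, 10, 11, 13 and 8 embryos. Slopes of 0.17 were found for Hoxa7, Hoxc5, Hoxd4 and Hoxd8, and slopes of 0.10 for Hoxa2 and Hoxb1. The 9 rising genes and 1 falling gene stood beside 12.4% and 12.9% of all genes tested. Most of cluster b gave slopes near 0, such as −0.01 for Hoxb8 (95% interval −0.12 to 0.09), 0.00 for Hoxb7 (−0.08 to 0.09) and 0.05 for Hoxb9 (−0.06 to 0.16), so that of the paralog 9 genes Hoxa9 and Hoxc9 passed the test and Hoxb9 and Hoxd9 (0.12, adjusted p = 0.0861) did not. Without D24M15J 13 genes were higher, as Hoxa5, Hoxc4, Hoxc8 and Hoxd9 also passed.

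**Figure D3:**
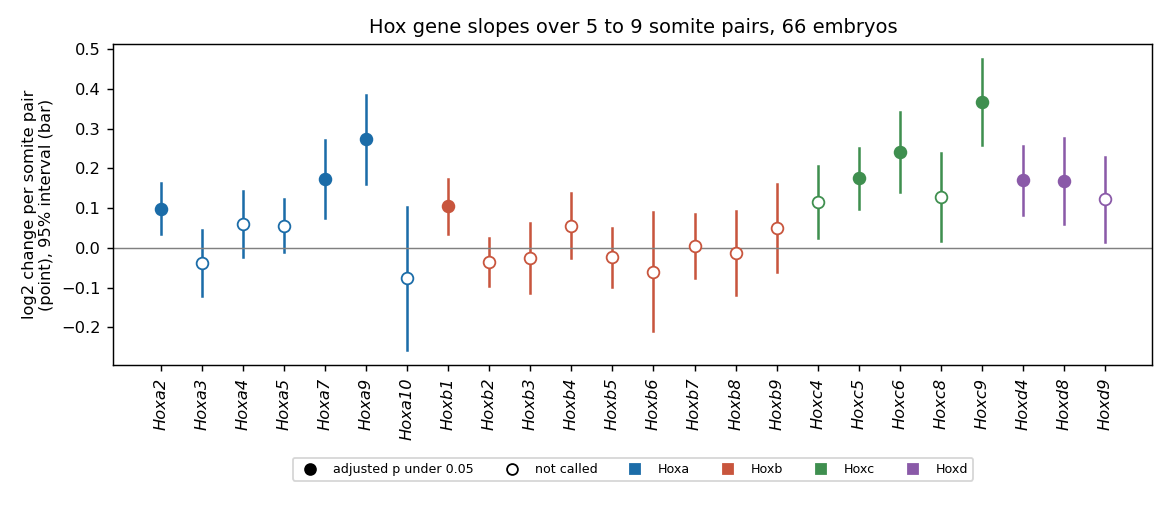
Slope of the level on somite number in the 66 embryos, in log2 units per somite pair with 95% intervals, for Hox genes that passed the low-count filter, by cluster and paralog number, with filled points for adjusted p below 0.05. Hoxc9 has the steepest slope at 0.37, and Hoxb7, Hoxb8 and Hoxb9 lie near 0.

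Some markers of cell types moved over the same stages. The summed level of primitive erythroid markers in embryos was 2.56, 37.8 and 151.5 (lowest, median and highest) early and 19.3, 209 and 4633 late. Tcf15 and Meox1, 2 of 3 tested paraxial mesoderm markers, were called higher. Neural plate markers were mixed, with 2 of 5 higher and 1 lower, as were extraembryonic mesoderm and allantois markers, with 2 of 6 higher and 2 lower. Visceral endoderm markers had 0 of 9 higher and 1 lower, and endothelium markers 0 of 4 called. The part of these shifts in the Hox differences was not tested. Among the genes that act on the clusters, Cdx1 fell by 1.08 on the log2 scale (SE 0.18, adjusted p = 3.42e-06), from a median of 138 to 70.2. Gbx2, Wnt3a, Rarg and Cyp26a1 were lower as well and Gdf11, a signal known to bring on posterior Hox genes, was higher by 0.54, which made 1 higher and 5 lower of 16. Of the PBX, MEIS and PKNOX genes 2 of 8 were higher (Pbx2 by 0.57 and Pknox2 by 0.26), of 12 Polycomb and trithorax genes 1 was lower, and of 7 tested noncoding cluster genes 1 was higher, Hoxb5os, by 1.22 (SE 0.20). Of the flanking genes 1 of 8 was higher and 2 were lower. Over all genes tested the shares were 14.6% higher and 15.2% lower.

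In yolk sacs Hoxc8 rose and Hoxb2, Hoxb3 and Hoxb8 fell with stage, and Hoxb6 was higher by a call that most alternatives lost. Of the genes that rose in embryos, Hoxb1 (log2 difference 0.29, adjusted p = 0.438), Hoxc6 (0.24, adjusted p = 0.181) and Hoxc9 (0.31, adjusted p = 0.123) were tested and did not pass here, and Hoxa2, Hoxa7, Hoxa9, Hoxc5, Hoxd4 and Hoxd8 were not tested. Hoxc8 went from 23.3, 72.2 and 157 in 34 early yolk sacs to 43.0, 99.8 and 311 in 32 late ones, a log2 difference of 0.58 (SE 0.15, adjusted p = 0.001). Hoxb3 went from 9.64, 23.4 and 49.3 to 4.32, 12.7 and 37.95, a difference of −0.74 (SE 0.15, adjusted p = 5.07e-05). Hoxb8 went from 9.81, 33.7 and 85.4 to 0, 25.4 and 49.9, a difference of −0.50 (SE 0.15, adjusted p = 0.00575). The groups overlapped for all 3.

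Hoxb2 fell by 0.35 on the log2 scale (SE 0.13, adjusted p = 0.0213), and Hoxb6 was higher by 0.51 (SE 0.21, adjusted p = 0.0457), from 2.39, 9.65 and 35.4 to 2.61, 16.6 and 47.4. Of 12 Hox genes tested 2 were thus higher and 3 lower, beside 21.7% and 18.3% of all genes (40% in either direction). The Hoxb6 call was lost with DESeq2, with RLE scaling, without the low-count filter and with litter as a fixed block, and it held in 8 of 22 fits that left out 1 litter. The Hoxb2 call was lost without litter D24M15 and with litter as a random block, and the Hoxb8 difference with litter as a fixed block was −0.35 (adjusted p = 0.221). The share of the yolk sac Hox sum given by cluster b was 55.6% early and 45.8% late, and that of cluster c 33.5% and 44.0%. Cell type markers also differed between the stages. In late yolk sacs 8 of 10 tested visceral endoderm markers were higher and 1 lower, and 4 of 5 erythroid markers were higher. Extraembryonic mesoderm and allantois markers were mixed, with 3 of 5 tested higher and 2 lower, as were endothelium markers, with 1 of 4 higher and 1 lower. The 1 tested neural plate marker was lower. The part of these markers in the yolk sac Hox differences was not tested. Of the other lists, 2 of 8 PBX, MEIS and PKNOX genes were higher and 1 lower, 3 of 6 upstream genes were lower, led by Cyp26a1 (−0.59), and 5 of 12 Polycomb and trithorax genes were lower, led by Suz12 (−0.43).

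Whether a gene's yolk sac to embryo difference itself changed with stage was tested as an interaction. Hoxb3 was the 1 Hox gene of 25 to pass, with a log2 difference of −2.19 early and −2.87 late and an interaction of −0.67 (SE 0.20, adjusted p = 0.0382), beside 3.04% of all genes (1.61% higher and 1.43% lower). Without the low-count filter the value was −0.69 (adjusted p = 0.0621), and without the conceptus D24M15J −0.75 (adjusted p = 0.0147).

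The third comparison asked whether maternal diabetes went with a difference in Hox levels. In early embryos none of the 25 tested genes passed, beside 1.46% of all genes (0.591% higher and 0.872% lower), and the lowest adjusted p was 0.0831. At an unadjusted p under 0.05 there were 3, all higher in the diabetic group, and the share of all genes at that threshold was not counted. Hoxb3 was 37.1, 89.9 and 178 (lowest, median and highest) in 17 normal embryos and 58.1, 130 and 306 in 17 diabetic ones, a log2 difference of 0.51 (SE 0.16, unadjusted p = 0.00313, edgeR). Hoxb4 was 40.7, 68.9 and 93.9 against 33.8, 102 and 300.5, a difference of 0.50 (SE 0.17, adjusted p = 0.108). Hoxd4 was 63.1, 114 and 215 against 46.7, 181 and 326, a difference of 0.43 (SE 0.19, adjusted p = 0.195). The ranges of the groups overlapped for each, and DESeq2 also called 0 genes. Leaving out 1 litter at a time called 0 to 2 genes, with Hoxb3 passing without D28M37, without N23M31 and without N24M21, and Hoxb4 passing without D28M37.

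In late embryos 1 of 25 passed, beside 9.09% of all genes tested (5.2% higher and 3.89% lower). Hoxb3 was 87.0, 120 and 191 in 16 normal embryos and 32.6, 85.8 and 165 in 16 diabetic ones, a log2 difference of −0.49 (SE 0.15, 95% interval −0.79 to −0.19, adjusted p = 0.0357). Its direction was the opposite of that in early embryos. The difference was −0.42 (adjusted p = 0.0404) without D24M15J, whose Hoxb3 level was the lowest, −0.56 (adjusted p = 0.0801) with litter as a random block and −0.53 (adjusted p = 0.104) on counts summed per litter. Leaving out 1 litter gave −0.54 to −0.44, and the call was lost without D28M23, D28M31, N24M29, N28M05, N28M07 or N28M30. Hoxb6 was 9.35, 23.1 and 55.8 in normal and 1.42, 13.8 and 35.0 in diabetic embryos, a difference of −0.76 (SE 0.30, adjusted p = 0.0921).

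**Figure D4:**
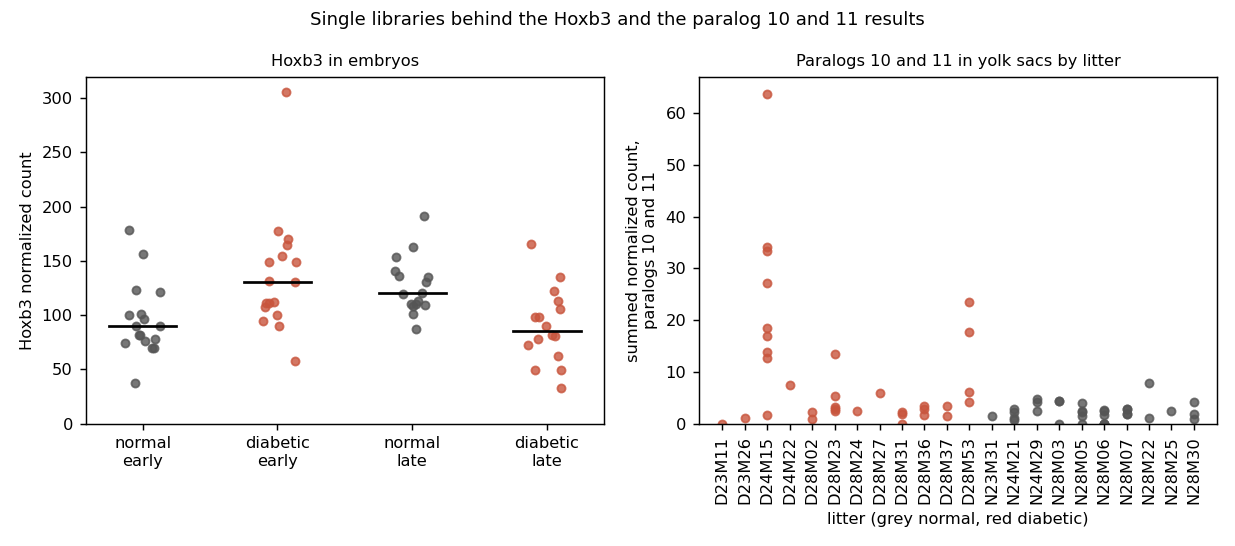
Left, normalised count of Hoxb3 in each embryo of the 4 groups, with a line at the group median (89.9 normal early, 130 diabetic early, 120 normal late, 85.8 diabetic late). Right, summed level of the paralog 10 and 11 genes in each yolk sac by litter. The highest values are in diabetic litters, 8 of the 11 highest in D24M15, a cut not set beforehand.

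The change of the diabetic difference between stages was tested directly. For Hoxb3 the late minus early difference was 0.41 in normal and −0.58 in diabetic embryos, an interaction of −0.99 (SE 0.23, 95% interval −1.44 to −0.53, adjusted p = 0.00841), and it was the 1 Hox gene of 25 to pass, beside 8.7% of all genes (4.35% higher and 4.35% lower). The value ran from −1.07 to −0.83 over the alternatives, with adjusted p from 0.00276 to 0.0161, and it was −0.83 without the embryos D24M15J and D28M23H. Hoxb3 encodes a hindbrain and neck level factor. Its antisense neighbour Hoxb3os shares 2250 of its 4251 exonic bases, 493 of them in the last 500, and since the strand setting of the counting is not given in the sources used here, tags of the pair cannot be told apart. For Hoxb3os itself the late diabetic difference was −0.01 (adjusted p = 0.972) and the interaction −0.38 (adjusted p = 0.191), at a median level of 31.5 in embryos.

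Other genes at p under 0.05 in this interaction were Hoxb4 (−0.52, p = 0.0275), Hoxb6 (−1.04, p = 0.0162) and Hoxc8 (−0.68, p = 0.037) in the edgeR test without adjustment. With Hoxb3, all 4 values were negative, and the share of all genes at this unadjusted threshold was not counted. D28M23H was the highest of the early diabetic embryos for Hoxb3, Hoxb4 and Hoxc8. D24M15J was the lowest of the late diabetic embryos for all 4. Without these embryos Hoxb3 alone passed the adjusted test. With litter as a random block Hoxb6 passed the adjusted test together with Hoxb3. In the other lists, Cyp26a1 (−0.68, adjusted p = 0.0227) and the acetyltransferase Kat6a (−0.56, adjusted p = 0.0487) had interactions in the same direction, and Calcoco1, which flanks cluster c, in the other (0.61, adjusted p = 0.0279). Of the PBX and MEIS genes, Meis2 was lower in late diabetic embryos (−0.23, adjusted p = 0.0343), and no gene of the lists passed in early embryos or in yolk sacs. The lowest p in early embryos were those of Rnf2 (−0.27, unadjusted p = 0.00147, edgeR), Cdx4 (0.63, p = 0.00343) and Pbx3 (−0.19, p = 0.00768).

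In yolk sacs none of the 11 tested Hox genes passed at either stage, beside 0% of all genes early and 0.0194% late. The edgeR test at an unadjusted p under 0.05 held 1 gene early, Hoxb7, at −0.31 (SE 0.13, adjusted p = 0.558), and 0 late, and DESeq2 called 0. Hoxb3 medians in yolk sacs were 19.5 normal and 25.3 diabetic early, and 12.0 and 12.9 late. The stage by diabetes interaction called 0 of 12 Hox genes in yolk sacs, with 0 at an unadjusted p under 0.05 and 0% of all genes called, and the value for Hoxb3 was −0.14. The tests of whether the yolk sac to embryo difference depended on diabetes called 0 of 25 at each stage, beside 0% of all genes early and 0.389% late. The late test also called 0 without the conceptus D24M15J. At an unadjusted p under 0.05 there were 4 Hox genes early and 7 late. The share of all genes at that unadjusted threshold was not counted for these or for the yolk sac tests.

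Hoxa10 had the lowest p in that last test at both stages. Its yolk sac to embryo difference was −4.23 on the log2 scale in normal and −1.21 in diabetic early concepti, and −3.86 and −1.36 in late ones, with an interaction of 3.01 (adjusted p = 0.389) and 2.499 (adjusted p = 0.0763). In the late test DESeq2 called Hoxa10 and Hoxa5. The yolk sac values came largely from 1 litter. In D24M15, chosen for description after its values were seen, Hoxa10 was 0.814, 10.5 and 35.2 (lowest, median and highest of 9 yolk sacs), with a count in 9 of 9. In the other 24 diabetic yolk sacs it was 0, 0.968 and 8.89, and in the 33 normal ones 0, 0 and 4.14.

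The sum of the paralog 10 and 11 genes, which includes Hoxa10, was 1.63, 18.5 and 63.8 in the D24M15 yolk sacs. It was 0, 2.88 and 23.5 in those of other diabetic litters, and 0, 2.16 and 7.84 in those of normal litters. The cluster c members did not show this split. Hoxc10 had medians of 0.817 in D24M15, 1.26 in other diabetic and 0.874 in normal yolk sacs. Hoxc11 had a count in 0 of the 9 D24M15 yolk sacs. In the same order, medians were 4.63, 0 and 0 for Hoxa11, and 1.64, 0 and 0 for both Hoxd10 and Hoxd11. Of the 11 highest yolk sacs 8 were from D24M15 and the others were D28M53A, D28M53E and D28M23B. No test was made because the litter was picked on these values, and the cut at the 11 highest was not set beforehand. Tbx4, 1 of 6 genes listed for extraembryonic mesoderm and allantois, was 0, 0 and 2.62 in the D24M15 yolk sacs but 0, 14.6 and 32.6 in the 4 of litter D28M53. The other listed genes were mixed. Medians in D24M15, other diabetic and normal yolk sacs were 288, 265 and 233 for Hand1, 111, 88.8 and 76.7 for Postn and 80.8, 59.45 and 77.2 for Bmp4. They were 170, 197 and 180 for Foxf1 and 81.7, 124 and 102 for Pitx1. The D24M15 embryos had a summed level of 0.709, 19.5 and 50.6, and the other diabetic and the normal embryos had medians of 25.6 and 22.4.

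The diabetic embryos D24M15J and D28M23H departed from their groups in opposite directions, unevenly across the Hox genes. They were picked after their values were seen and are described with no test. D24M15J, with 8 somite pairs, had the lowest level of 66 embryos for 20 of the 25 tested genes. Relative to the median of the other 15 late diabetic embryos it held 147% of Hoxa2, 64.7% of Hoxb2 and 52.5% of Hoxb1. Paralogs 3 to 5 lay between 8.47% (Hoxc4) and 36.2% (Hoxb3), with Hoxd4 at 29.1%, Hoxb5 at 32.1%, Hoxc5 at 17.4% and Hoxa5 at 11.3%. Hoxc6 was at 1.33%, Hoxa7 at 0.746% (3 counts), Hoxb8 at 2.14% (9 counts), Hoxc8 at 0.399% (1 count) and Hoxb9 at 0.969%, and Hoxa10 and Hoxd8 had no count. Of the 3 promoters with TTTATG printed above, those of Hoxa7 and Hoxb8 thus belonged to genes near 0 and that of Hoxd4 to a gene reduced less. The printed promoter without a match, that of Hoxa9, also belonged to a gene near 0, at a level of 2.13 in this embryo. A link between the letters and these levels was not tested.

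Genes of the tail end were low in the same embryo, with T at 7.34% of the median of the others, Cdx1 at 8.49%, Cdx2 at 2.47%, and Cdx4 and Tbx6 without a count. Head genes were the highest of 66 embryos, at 175% for Otx2, 239% for Six3 and 216% for Pax6. Somite genes were near the group level, with Meox1 at 116% and Tcf15 at 90.2%. Its own yolk sac was the highest of 66 for Hoxa3 (6.54), Hoxa5 (17.2), Hoxb1 (40.9), Hoxd4 (11.4) and Cdx1 (10.6).

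D28M23H, with 5 somite pairs, had the highest level of 66 embryos for 6 genes. These were Hoxc8 at 620 (400% of the median of the other early diabetic embryos), Hoxb9 at 384 (281%), Hoxb3 at 306, Hoxb4 at 300.5 (295%), Hoxa3 at 162 (332%) and Hoxc4 at 138 (267%). Hoxb1 and Hoxb2 were not raised, at 99.0% and 94.4%. Cdx4 was also the highest of 66, at 533. Among normal embryos, N28M06H was low for paralogs 7 to 9 (21.98% for Hoxd9, 23.7% for Hoxa9 and 25.9% for Hoxa7). It was near its group for Hoxd4 (93.6%) and Hoxb3 (82.7%), with T at 33.9%. No cause of these single profiles was tested.

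**Figure D5:**
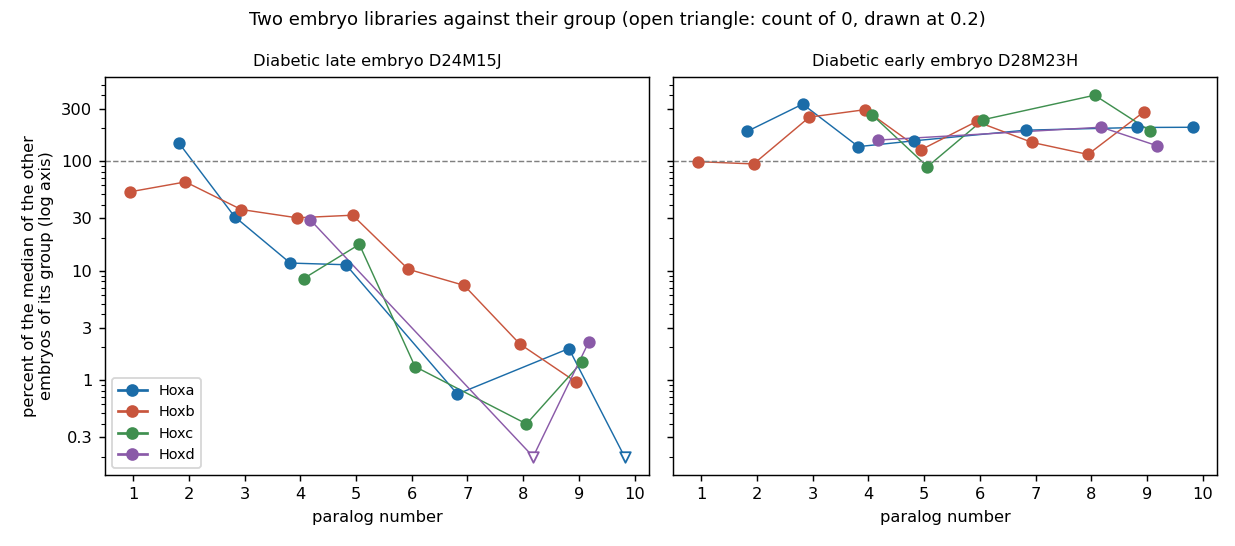
Level of tested Hox genes in the embryos D24M15J and D28M23H as a percent of the median of the other embryos of its group, by paralog number on a log axis, with open triangles for a count of 0 drawn at 0.2. In D24M15J the percentages fall from 147% for Hoxa2 to 0.399% for Hoxc8, and in D28M23H the highest is Hoxc8 at 400%.

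Library repeats gave the scale of the technical spread. For 4 libraries repeated as batch controls, the median absolute log2 difference over the 9 to 26 Hox genes with a level of at least 10 was 0.0876 and 0.0612 for the embryo libraries and 0.209 and 0.228 for the yolk sac libraries, with a largest single difference of 1.02, for Hoxb5 in a yolk sac. Besides Hoxb3, the genes Hoxb2, Hoxa7 and Hoxa3 overlap antisense exons over the whole of their last 500 bases, where 3′ tags fall. How tags there were assigned is not known, since the strand setting is not given. Hoxa7 had 18861 counts over all libraries and its antisense neighbour Hoxaas3 had 29043, with a median level of 360 in embryos and 2.32 in yolk sacs.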

How the data were processed

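The authors deposited raw counts per gene, made from molecular-identifier collapsed 3′ tags with STAR and HTSeq on mm10 (submitters' processing notes). Versions and the strand setting are not given in the sources used here. Levels are counts divided by DESeq2 1.42.0 size factors over all embryo and yolk sac libraries, and the 4 batch-control repeats entered no test. Tests were two-sided edgeR 4.0.16 quasi-likelihood fits (TMM, filterByExpr, R 4.3.3) over all genes that passed the filter, with Benjamini-Hochberg adjustment and calls at 0.05. The code was tested on simulated data. Diabetic and normal, late and early, yolk sac and embryo, the somite slope and their interactions were fitted separately. Embryo and yolk sac pairs come from the same conceptus by label. Over 10765 genes their deviations from group means correlated at −0.337 to 0.546 (median 0.0746), and each embryo matched its own yolk sac best in 12 of 66. Alternatives were DESeq2, RLE scaling, no filter, litter as a fixed block, litter as a random block (limma 3.58.1), litter sums, covariates and leaving out each litter. Fits without D24M15J or D28M23H, and the random block for the stage by diabetes interaction, were chosen after seeing the data. Some genes are not reported here by name. The Hox genes and all lists were chosen with earlier results of these data known. Hox genes could be named, and of each list up to 4 called genes with the largest change, or the gene with the lowest p. Genes outside this rule (Cdx2, Hoxb3os, head and tail genes of single embryos, Tbx4 and the other genes of its marker list) were chosen after their values were seen.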

Additional observations from a re-analysis of the deposited data

Results flagged for a closer look

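For Hoxb3 the late minus early difference in embryos differed between the diabetic and the normal group, with an interaction of −0.99 on the log2 scale (SE 0.23, edgeR quasi-likelihood, adjusted p = 0.00841). The yolk sac to embryo difference of Hoxb3 differed between stages, with an interaction of −0.67 (SE 0.20, adjusted p = 0.0382). In yolk sacs the first interaction was −0.14 and did not pass. No explanation was tested for either value.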

How the results depend on the processing

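Of the values of called Hox genes under the alternatives, 927 kept their direction and side of the threshold, 61 kept the direction and lost the call, and 0 reversed. For diabetic against normal embryos, the title number as a covariate called 1 gene early (Hoxb3) and 2 late (Hoxb3 and Hoxb6), and the late count was 0 with litter as a random block and 0 on counts summed per litter. Leaving out 1 litter called 0 to 2 genes early, 0 to 2 late and 0 in yolk sacs at each stage. For late against early embryos, litter as a fixed replicate block gave 5 higher and 0 lower. The lower count was also 0 with litter as a random block, without D24M15J, and without D24M15J and D28M23H. Leaving out 1 litter gave 8 to 11 higher and 0 to 1 lower. The somite slope gave 5 higher with the fixed block, 14 without the 2 embryos, and 7 to 13 higher and 1 lower without single litters. In yolk sacs 1 gene was higher with stage under DESeq2, RLE scaling and the fixed block, 5 were lower without the filter, and single litters left out gave 1 to 3 higher and 2 to 3 lower. The stage by diabetes interaction called 2 genes with the random block, the late tissue by diabetes interaction 2 with DESeq2, and the tissue by stage interaction 0 without the filter. Without the filter 1 gene (Hoxc13) was higher in yolk sacs at each stage. With the conceptus as a replicate block, the pairing gave 25 and 24 genes lower in yolk sacs, and it changed no other call. Leaving out litters was not run for tissue and interaction comparisons, and a fixed litter block could not be fitted for diabetic against normal because each litter holds 1 group. Of the genes at paralog 10 and above, Hoxa10 alone passed the low-count filter in the embryo and tissue comparisons, and littermates correlated at 0.0992 to 0.251.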

Other observations

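Hoxa10 in yolk sacs was 0, 0 and 4.14 (lowest, median and highest) in normal early concepti, 0, 2.5 and 35.2 in diabetic early, 0, 0 and 1.74 in normal late and 0, 1.22 and 18.5 in diabetic late ones. The repeat of the D24M15G yolk sac library gave a summed level of paralogs 10 and 11 of 21.9, beside 18.5 in the first library. Pitx1, a gene of the posterior body, was 52.9, 81.7 and 220 in the D24M15 yolk sacs and 40.7, 124 and 335 in those of other diabetic litters. Among early diabetic embryos, D28M37B had low levels over most Hox genes, from 25.7% to 102% of the median of the other embryos of its group.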
